A study of Rana pirica with 9 samples.

Results

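Haemoglobin and red cell genes were read in brains dissected from tadpoles of Rana pirica, a brown frog, as a measure of blood RNA in the tissue. The genes were hba1 and hba3, which name alpha chains of haemoglobin, slc4a1, gata1 and alas2. They were chosen by symbol in the annotation of the array, with the endings that mark the paired gene copies of the clawed frog Xenopus laevis removed. Of the 5 genes, 4 were found, with 5 probe sets among the 15491 tested and 4 genes among the 6485 named. No probe set was matched to alas2, the enzyme that starts haem synthesis in red cells, and it was not analysed here. A further probe set, 1 in number, listed a member together with another globin and was left out because it cannot be assigned to either.

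RNA of one frog was hybridized to one-colour Affymetrix arrays designed for another, so how well each probe matches the Rana transcript is unknown. The salamander group had 3 arrays, from tadpoles kept for 8 days with salamander larvae, a predator of tadpoles. The control group had 6 arrays, from tadpoles kept for 8 days without predators. In both groups the tadpoles had not yet grown hind limbs, no genetic change or drug is named, and the RNA of 10 brains went into each array. The labels call the samples biological replicates but do not say whether they came from separate tanks or clutches, so p-values measure only the spread between these samples. Every value is a log2 signal as deposited, relative to the median control array of the same probe set. Such values can be compared between groups but hold no absolute level, so probe sets cannot be ranked by abundance. Precision is limited by how few arrays there are and, for each probe set, by the spread of its values. Among the 4219 pairs of probe sets that share a gene name, Pearson's r over the 9 arrays had a median of -0.01 and was above 0 in 49.3%. As a rule, then, probe sets of the same gene did not vary together. It could not be checked whether the deposited rows still hold the values computed for their probe sets or were altered before deposit, and how much of the signal between these frog species is noise was not tested. Each value below is that of the row named for the gene, and that it belongs to the Rana gene is not shown.

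Red cells of frogs keep their nucleus in the circulation. They carry oxygen on haemoglobin, a protein of alpha and beta chains that each hold a haem group, and tadpoles replace their larval chains with adult ones at metamorphosis. GATA1 is the transcription factor that switches on globin and haem synthesis genes in red cell precursors, and the anion exchanger encoded by slc4a1 swaps chloride for bicarbonate across the red cell membrane. Neural tissue is not a main source of these transcripts, and a dissected brain carries blood in its vessels. In a bulk sample, fewer red cells and less of a transcript in each red cell cannot be told apart.

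Of the 5 probe sets, 4 had a lower mean in the salamander group and 1 a higher one, and 0 passed limma at an adjusted p under 0.05, as did 0 of all 15491 probe sets, or 0%. At an unadjusted p under 0.05 stood 1 of the 5, slc4a1, against 5.15% of all probe sets, or 798, made up of 3.03% lower and 2.12% higher in the salamander group. The groups did not overlap in 1 of the 5, again slc4a1 and lower in the salamander group, against 2.33% of all probe sets without overlap, 1.24% lower and 1.09% higher. Adjusted p-values in limma lay between 0.769 and 0.989. The median difference of the 5 was -0.51 on the log2 scale, and that of all probe sets 0.0016. A linear model without moderation also gave 0 calls over all probe sets, with 719 at an unadjusted p under 0.05.

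**Figure D1:**
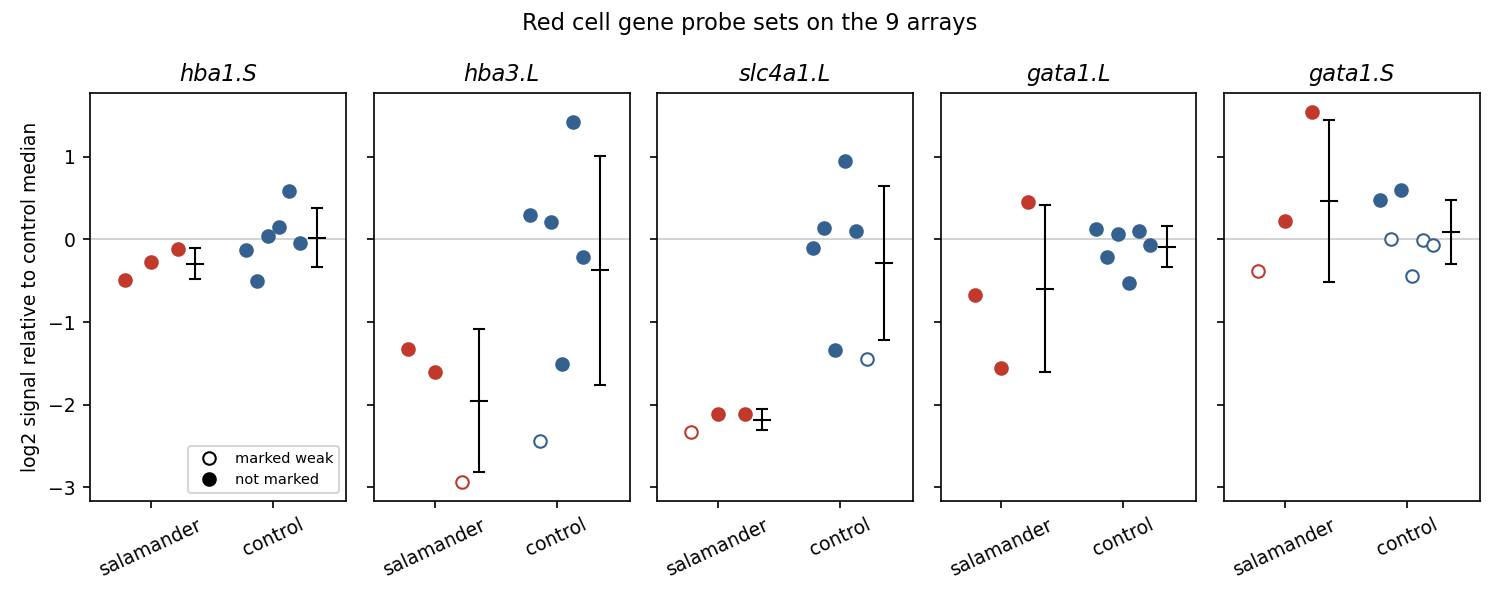
Each panel plots the log2 signal relative to the control median (vertical axis) of 1 probe set on the 3 salamander arrays (left, red) and the 6 control arrays (right, blue), each in the order of its array number, with the mean ± SD of each group in black and open circles for values marked weak. The salamander arrays of slc4a1.L sit between -2.33 and -2.11, below all control arrays, and the groups overlap in the other panels. Filled circles can also be weak: the filled salamander points of slc4a1.L lie below a control value marked weak. The open circles of gata1.S on control arrays 2 and 5 can come from rounding of the deposited numbers.

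The alpha globin gene hba1 differed little. Its probe set, hba1.S, stood at -0.49, -0.27 and -0.12 on salamander arrays 1, 2 and 3. On control arrays 1 to 6 it stood at -0.13, -0.50, 0.04, 0.16, 0.59 and -0.04. All 3 salamander arrays lay below the control median, but 2 of the 6 controls lay below the highest of them and 1 below all of them. The means were -0.29 ± 0.19 (SD, n = 3) in the salamander group and 0.02 ± 0.36 (SD, n = 6) in controls. The difference of -0.31 (SE 0.41, 95% confidence interval -1.21 to 0.58) corresponds to 0.805 times the control level, with an interval of 0.432 to 1.5, and its adjusted p in limma was 0.989. Its residual SD of 0.32 was at the 4.08th percentile of all probe sets, whose median was 0.96. Without control array 5 the difference was -0.20.

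The second alpha globin gene, hba3, had a larger difference and a much larger spread. Its probe set, hba3.L, stood at -1.32, -1.60 and -2.93 on salamander arrays 1, 2 and 3. On control arrays 1 to 6 it stood at 0.29, -2.44, 0.21, -1.51, 1.42 and -0.21. Salamander array 3 lay below every control, whereas control arrays 2 and 4 lay below salamander array 1. The means were -1.95 ± 0.86 (SD, n = 3) in the salamander group and -0.37 ± 1.38 (SD, n = 6) in controls. The difference was -1.58 (SE 0.78, interval -3.29 to 0.14), or 0.335 times the control level, with an adjusted p in limma of 0.950 and an unadjusted p of 0.0678. Its residual SD of 1.26 was at the 79.2nd percentile.

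The red cell anion exchanger slc4a1 had the largest difference of the 5. Its probe set, slc4a1.L, stood at -2.33, -2.11 and -2.11 on salamander arrays 1, 2 and 3. On control arrays 1 to 6 it stood at -0.11, 0.14, -1.33, 0.95, 0.11 and -1.44. The 3 salamander arrays lay within 0.22 of each other and 0.66 below the lowest control, whereas the controls spread over 2.40. The means were -2.18 ± 0.13 (SD, n = 3) in the salamander group and -0.28 ± 0.93 (SD, n = 6) in controls. The difference of -1.90 (SE 0.57, interval -3.15 to -0.65) corresponds to 0.267 times the control level, with an interval of 0.113 to 0.635. Its unadjusted p in limma was 0.0062, a value that 0.807% of all probe sets reached, 125 in number, and its adjusted p was 0.769. An exact two-sided permutation test gave p = 0.0238, where 84 arrangements of 3 arrays among 9 allow no value below 0.0119. The members were listed with earlier results of these arrays in view, this difference among them, so its place apart from the others is a description and no independent evidence.

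The 2 probe sets of gata1, which detect the paired copies of the gene in the clawed frog, went in opposite directions. For gata1.L the values were -0.67, -1.56 and 0.45 on salamander arrays 1, 2 and 3, and on control arrays 1 to 6 they were 0.13, -0.21, 0.07, -0.53, 0.11 and -0.07. For gata1.S they were -0.38, 0.22 and 1.54 on salamander arrays 1, 2 and 3, and on control arrays 1 to 6 they were 0.48, 0.00040, 0.60, -0.45, -0.00040 and -0.071. The salamander arrays were more widely spread than the controls in both: they covered 2.01 against 0.66 in gata1.L, and 1.92 against 1.05 in gata1.S. In both probe sets salamander array 3 was above every control.

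The means of gata1.L were -0.59 ± 1.01 (SD, n = 3) in the salamander group and -0.09 ± 0.25 (SD, n = 6) in controls, a difference of -0.51 (SE 0.49, interval -1.58 to 0.56) with an adjusted p in limma of 0.987. The means of gata1.S were 0.46 ± 0.98 (SD, n = 3) in the salamander group and 0.09 ± 0.39 (SD, n = 6) in controls, a difference of 0.37 (SE 0.50, interval -0.73 to 1.47) with an adjusted p in limma of 0.989. Averaged over both probe sets, gata1 differed by -0.07 (SE 0.45). The sign of gata1.S rested on 1 array: without salamander array 3 its difference was -0.17, and without salamander array 1 it was 0.79. The difference of gata1.L was -0.02 without salamander array 2 and -1.03 without salamander array 3.

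A partial reading of signal strength came from the rounding of the deposited numbers, in which steps too fine for a log2 signal of a large size mark a signal below 256 on the array or in the control median. Weak signals can escape this mark. The mark was on 0 of 9 arrays for hba1.S and gata1.L. It was on salamander array 3 and control array 2 for hba3.L, the lowest array of each group, and on salamander array 1 and control array 6 for slc4a1.L, again the lowest of each group. For gata1.S it was on 5 arrays, 1 of the salamander group and 4 controls. On control arrays 2 and 5 of gata1.S, the deposited 0.000398 and -0.000397 hold too few digits to tell the steps apart. Their marks can come from rounding alone and are no reading of signal strength. For slc4a1.L, salamander arrays 2 and 3 lay below the marked control array 6 on the same scale. Their signals were therefore below 256 as well, although they lack the mark. The lowest values of hba3.L and every salamander value of slc4a1.L thus come with weak signals. Weak marks are common here: 47.2% of all probe sets had at most 1 marked value, and hba3.L and slc4a1.L had 2 each.

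**Figure D2:**
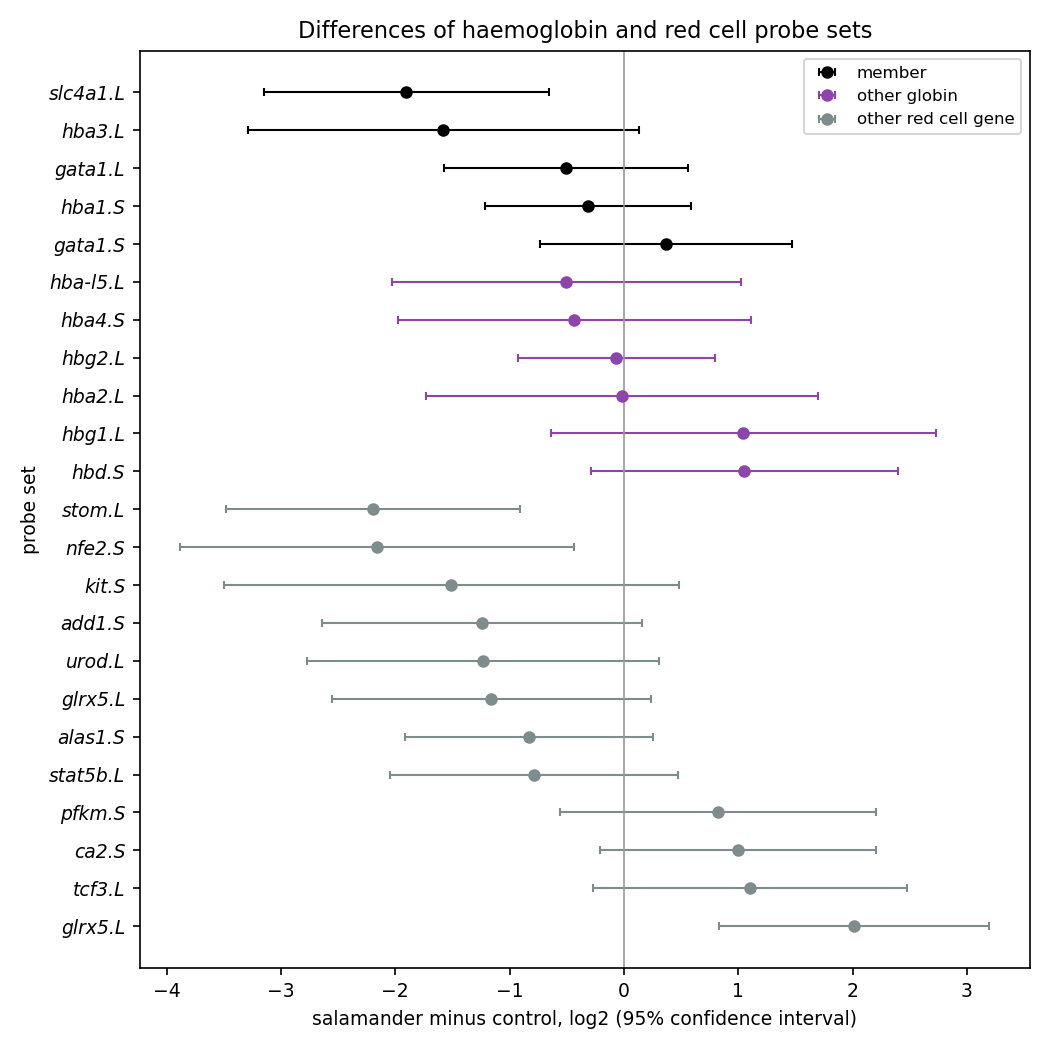
The difference between the salamander and control means on the log2 scale (horizontal axis) is drawn as a point with its 95% confidence interval, not adjusted for the number of probe sets, for the 5 member probe sets (black), 6 other globins (purple) and the 12 red cell probe sets with the smallest p of their lists (grey). The intervals of slc4a1.L, stom.L, the nfe2.S probe set with the smallest p and 1 of the glrx5.L probe sets exclude 0, and none of these passed after adjustment.

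The arrays fall into 2 sets by the signal of their poly-A spike-ins, RNAs added before labelling, and each set holds both groups. The spike-in mean was between 1.04 and 1.6 on salamander arrays 1 and 2 and control arrays 2, 3 and 4. It was between -2.04 and -1.54 on salamander array 3 and control arrays 1, 5 and 6. The low set thus holds a single salamander array. The mean of the hybridization controls, other spike-ins of the array, parted the same arrays by a smaller distance. It ran from 0.07 to 0.37 on the high arrays and from -0.24 to -0.12 on the low arrays. Among the member probe sets, the difference of hba3.L changed most between these sets. On the high arrays its mean was -1.46 in the salamander group and -1.25 in controls, a difference of -0.21 (SE 0.86). On the low arrays it was -2.93 on the salamander array and 0.50 in controls, a difference of -3.43 (SE 0.92). With spike-in level as a covariate the difference was -1.45 (SE 0.79). The part of the spike-in level in the difference of hba3.L was not tested.

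Within the same sets slc4a1.L differed by -2.14 (SE 0.79) in the high set and -1.62 (SE 0.93) in the low set, both lower in the salamander group. The mean of slc4a1.L was -2.22 in the salamander group and -0.08 in controls on the high arrays. On the low arrays it was -2.11 on the salamander array and -0.48 in controls. For hba1.S the differences were -0.28 in the high set and -0.26 in the low set. The gata1 probe sets changed sign, gata1.L with -0.89 in the high set and 0.40 in the low set, and gata1.S with -0.13 and 1.41 in the same order. In the low set the lone salamander array was assumed to vary like the controls. The difference between the 3' and 5' probe sets for actin is a reading of RNA integrity. Both are relative to their own control medians, so it is no absolute ratio. It ran from -3.03 to 4.53 over the salamander arrays and from -2.17 to 3.47 over the controls. The same difference for the gene Gapd ran from 0.085 to 0.61 over the salamander arrays and from -1.83 to 2.12 over the controls. The groups overlapped in both readings. The part of RNA integrity in the values of the red cell genes was not tested.

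**Figure D3:**
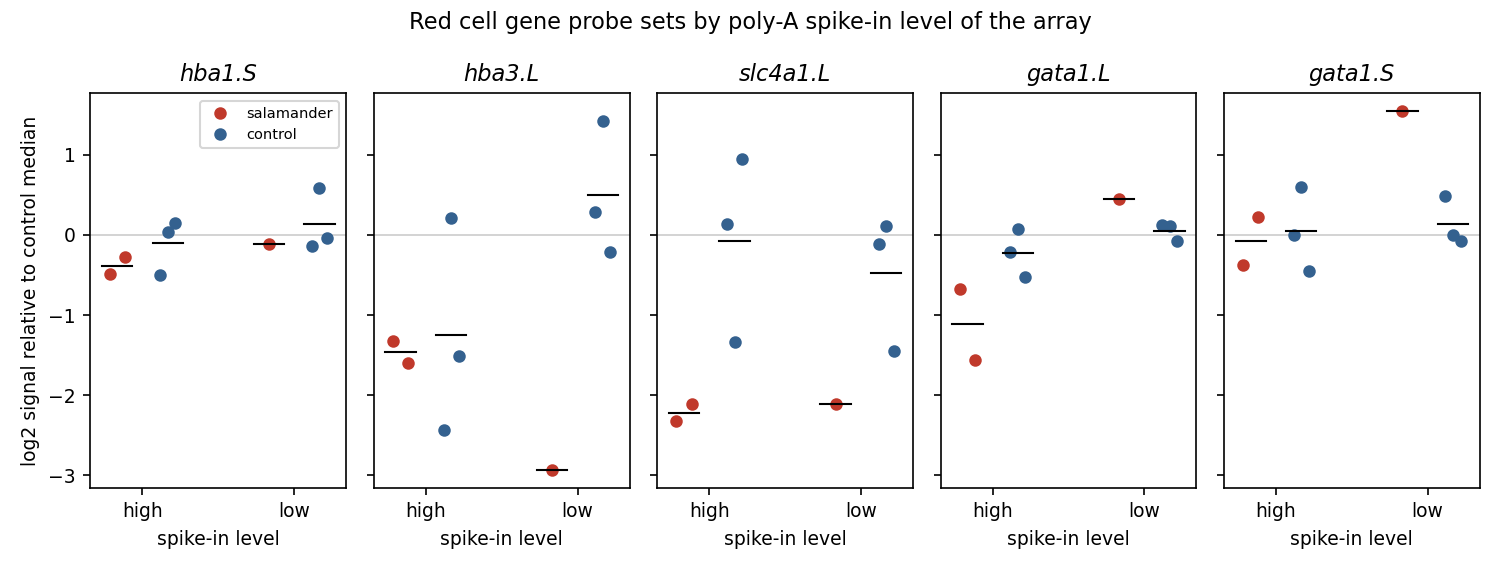
Each panel plots the log2 signal relative to the control median (vertical axis) of 1 probe set against the poly-A spike-in level of the array (high or low), with salamander arrays in red to the left of control arrays in blue, and lines at the means. The low set has 1 salamander array, at -2.93 for hba3.L, and in slc4a1.L the salamander arrays sit below the controls in both sets.

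Over the 5 probe sets together, the mean value was -1.04, -1.06 and -0.63 on salamander arrays 1, 2 and 3. On the controls it ran from -0.60, on array 2, to 0.45, on array 5. The groups were therefore apart by a narrow margin. The members were listed with the difference of slc4a1.L in view, so this margin is a description and no independent evidence. How often a mean over 5 probe sets parts the groups was not tested. The margin rested on slc4a1.L and hba3.L: without slc4a1.L the mean ran from -0.80 to -0.27 on the salamander arrays and from -0.79 to 0.53 on the controls. Without hba3.L it ran from -0.97 to -0.06 on the salamander arrays and from -0.41 to 0.20 on the controls. Over both gata1 probe sets it ran from -0.67 to 0.996 on the salamander arrays and from -0.49 to 0.34 on the controls.

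The members did not vary together closely. Over the 9 arrays, Pearson's r was above 0 in 8 of the 10 pairs of member probe sets, with a median of 0.24 and a range of -0.38 to 0.66. Of these 8, the pair hba1.S and gata1.S was at 0.0014, with a Spearman rho of -0.12. Each r covers both groups, so differences between the groups enter it. Over all pairs of probe sets on the array the median was -0.0015, with 49.8% above 0, and the middle part of the distribution, between its quartiles, ran from -0.26 to 0.26. The pair hba1.S and hba3.L had the highest r, 0.66 (exact permutation p = 0.0467, adjusted over the 10 pairs 0.467), with a Spearman rho of 0.52 (exact permutation p = 0.162, adjusted 0.776). Without control arrays 2 and 5, the arrays farthest from the median of hba1.S, r was 0.20. Leaving out the farthest arrays narrows the range of hba1.S, which can by itself lower r. The fall therefore does not show whether the relation rests on those arrays. The 2 probe sets of gata1 had an r of 0.50 (exact permutation p = 0.174, adjusted 0.660) and a rho of 0.60 (exact permutation p = 0.0968, adjusted 0.776), and an r of 0.88 without salamander arrays 1 and 2. The lowest r, -0.38 (exact permutation p = 0.326, adjusted 0.660), was that of slc4a1.L and gata1.S, with a rho of -0.22 (exact permutation p = 0.581, adjusted 0.776), and r was -0.11 without control arrays 2 and 4.

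Other genes of the globin family, all 6 that were measured, are given here although the rule for naming took only those with the smallest p. Alpha chains are named by hba2, hba4 and hba-l5, and the symbols hbd, hbg1 and hbg2 come from the beta family. Between such closely related genes, probes can share transcripts. The gene hbd.S stood at 1.47, 0.15 and 1.91 on salamander arrays 1, 2 and 3, and on control arrays 1 to 6 at -0.45, -0.71, 0.45, 1.52, 0.58 and -0.64. It had the highest difference, 1.05 (SE 0.61, interval -0.29 to 2.39), and salamander array 3 alone lay above all controls. Without that array the difference was 0.69.

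The gene hbg1.L had a difference of 1.04 (SE 0.77, interval -0.64 to 2.73), which came mostly from salamander array 1, at 3.34, and was 0.095 without that array. The gene hbg2.L was the steadiest, with a difference of -0.07 (SE 0.39, interval -0.93 to 0.79) and a residual SD of 0.24, at the 1.41st percentile. For hba4.S the difference was -0.43 (SE 0.71), for hba-l5.L -0.50 (SE 0.70) and for hba2.L -0.02 (SE 0.78). Without 1 array they moved further: hba4.S was at -0.90 without control array 6 and -0.10 without salamander array 3, hba-l5.L was at -0.08 without control array 3, and hba2.L was at -0.57 without control array 2 and 0.43 without salamander array 3. The groups overlapped in all 6, their adjusted p-values in limma were 0.980 or higher, and the median difference was -0.04.

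The mean over all 8 globin probe sets, the members hba1.S and hba3.L included, was 0.36, -0.36 and -0.49 on salamander arrays 1, 2 and 3. On the controls it ran from -0.91, on array 2, to 0.59, on array 5. The groups overlapped, with all 3 salamander arrays inside the range of the controls. Of the 28 pairs of these probe sets, 19 had an r above 0, with a median of 0.17 and a range of -0.49 to 0.66. The 3 alpha chain probe sets hba1.S, hba3.L and hba2.L had the highest values among themselves, between 0.55 and 0.66. Close behind was hba1.S with hbg2.L, named for the beta family, at 0.54. The other alpha chain probe sets had lower values with the same 3, in that order. These were 0.15, 0.24 and -0.04 for hba4.S, and 0.017, 0.24 and 0.25 for hba-l5.L. These correlations are a description over 9 arrays that share their groups.

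**Figure D4:**
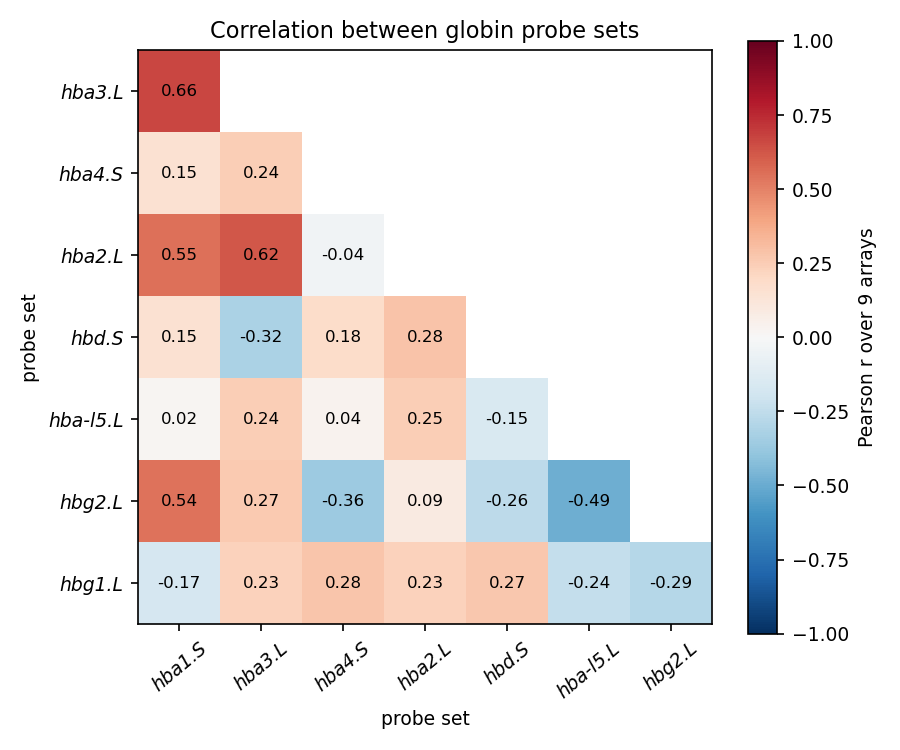
Each cell gives Pearson's r over the 9 arrays between the globin probe sets named on its row (vertical axis) and column (horizontal axis), from blue at -1 to red at 1. The values run from -0.49 to 0.66, and the cells joining hba1.S, hba3.L and hba2.L hold 0.66, 0.55 and 0.62.

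Beyond the globins, further genes of the red cell were taken from lists on haem synthesis, iron, membrane and skeleton, enzymes, transcription factors and growth factor signalling. A gene on these lists need not be specific to red cells, and the part of red cells in its values was not tested. With the other globins these lists held 48 genes and 79 probe sets apart from the members. Of the 79 probe sets, 35 had a higher and 44 a lower mean in the salamander group, or 55.7% lower against 49.9% of all probe sets. Their median difference was -0.13, against 0.0016 over all probe sets, and 0 passed the test. An unadjusted p under 0.05 was reached by 3, or 3.8%, beside the 5.15% of all probe sets. The groups did not overlap in 1 of the 17 membrane and skeleton probe sets, lower in the salamander group. They also did not overlap in 1 of the 12 iron probe sets, higher in that group, and in 0 of the other lists. Over all probe sets the share without overlap was 2.33%.

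In the membrane and skeleton list, 7 of 17 probe sets had a higher and 10 a lower mean, with a median of -0.28 and 0 called. The lowest difference was that of stom.L, the gene of stomatin, a membrane protein found in red cells and elsewhere. It stood at -2.68, -2.16 and -2.17 on salamander arrays 1, 2 and 3, and on control arrays 1 to 6 at 0.56, 0.09, 1.01, -0.74, -0.09 and -1.70. The groups did not overlap, in this 1 of the 17 probe sets of the list, against 1.24% of all probe sets without overlap and lower. The difference was -2.19 (SE 0.59, interval -3.48 to -0.90) with an adjusted p in limma of 0.734. Control array 6 alone carried the weak mark. All 3 salamander arrays lay below it on the same scale, so their signals were below 256 as well. The 2 probe sets of the cytoskeletal gene add1.S disagreed, at -1.24 (SE 0.64) and 0.31 (SE 0.68), both with overlapping groups.

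In the list of erythroid transcription factors, 10 of 19 probe sets had a higher and 9 a lower mean, with a median of 0.02 and 0 called. The gene nfe2.S, whose product binds globin control regions, had 5 probe sets that disagreed, 2 with a higher and 3 with a lower mean. Of these, 4 differed by 1.03 (SE 0.74), 0.67 (SE 0.84), -0.31 (SE 0.67) and -0.92 (SE 0.55). The remaining one, with the smallest p, stood at 0.19, -2.80 and -4.08 on salamander arrays 1, 2 and 3, and on control arrays 1 to 6 at 0.82, 0.09, 0.0049, -0.0049, -0.55 and -0.81. The difference of this probe set was -2.16 (SE 0.79, interval -3.88 to -0.43) with an adjusted p in limma of 0.866, and salamander array 1 lay among the controls. It was -3.37 without salamander array 1 and -1.23 without salamander array 3. The gene tcf3 also had probe sets on both sides, 1 higher and 3 lower: those of tcf3.L were at 1.10 (SE 0.63), -0.36 (SE 0.52) and -0.81 (SE 0.998), and that of tcf3.S at -0.06 (SE 0.78).

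Of 7 haem synthesis probe sets, 3 had a higher and 4 a lower mean, with a median of -0.13 and 0 called. The gene urod.L, for an enzyme in the middle of the pathway, had probe sets at -1.24 (SE 0.70), with 3 weak marks, and at 0.37 (SE 0.66), with 0. The gene alas1.S, for the form of the first enzyme that is made in all tissues, was at -0.83 (SE 0.50) and at -0.20 without salamander array 3, and its copy alas1.L was at -0.47 (SE 0.60). Of 12 iron probe sets, 5 had a higher and 7 a lower mean, with a median of -0.52 and 0 called. The gene glrx5.L, which serves the making of iron-sulphur clusters, had probe sets at 2.01 (SE 0.54) and -1.16 (SE 0.64), and its copy glrx5.S one at -0.44 (SE 0.64), so that they disagreed. The groups did not overlap in the first of them, which was higher in the salamander group, and its adjusted p in limma was 0.734, with a weak mark on 7 of its 9 values.

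Of 10 probe sets for red cell enzymes, 7 had a higher and 3 a lower mean, with a median of 0.32 and 0 called. The carbonic anhydrase gene ca2.S, whose enzyme makes the bicarbonate that the anion exchanger carries, was at 0.997 (SE 0.55) and its copy ca2.L at 0.13 (SE 0.83), and pfkm.S, of glycolysis, at 0.82 (SE 0.63). In growth factor signalling, 1 of 8 probe sets had a higher and 7 a lower mean, with a median of -0.65 and 0 called. That is 87.5% lower, against 49.9% of all probe sets. The receptor gene kit had 4 probe sets, all with a lower mean, with kit.S at -1.51 (SE 0.91), -0.75 (SE 0.64) and -0.34 (SE 0.56) and kit.L at -0.55 (SE 0.70), and stat5b.L, for a protein that relays the erythropoietin signal, at -0.79 (SE 0.58).

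Markers of other cells in blood and in the brain were read in the same way, as means over a list on each array, and no list held a called probe set. The leukocyte mean ran from -0.10 to 0.26 on the salamander arrays and from -0.50 to 0.34 on the controls. For thrombocytes, with 4 probe sets, it ran from -1.70 to 0.94 on the salamander arrays and from -0.74 to 0.40 on the controls. Only 3 of the 13 genes of the thrombocyte list were matched, f2r, itgb3 and plek, and whether they read thrombocytes alone was not tested. The endothelial mean ran from -0.54 to 0.08 on the salamander arrays and from -0.40 to 0.08 on the controls. For plasma proteins of the liver it ran from -0.73 to 0.17 on the salamander arrays and from -0.22 to 0.18 on the controls. The groups overlapped in these 4 lists. In the neuron list, of 19 probe sets, 13 had a higher and 6 a lower mean, or 31.6% lower against 49.9% of all probe sets. Its mean ran from 0.32 to 0.64 on the salamander arrays and from -0.05 to 0.14 on the controls. The lists were chosen with earlier results of these data known, so this separation is a description. How often a list mean parts the groups was not tested. Since the table gives no absolute levels, the presence of neurons or of blood in the samples could not be checked against a level at or near 0, and the part of these cells in the red cell values was not tested.

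**Figure D5:**
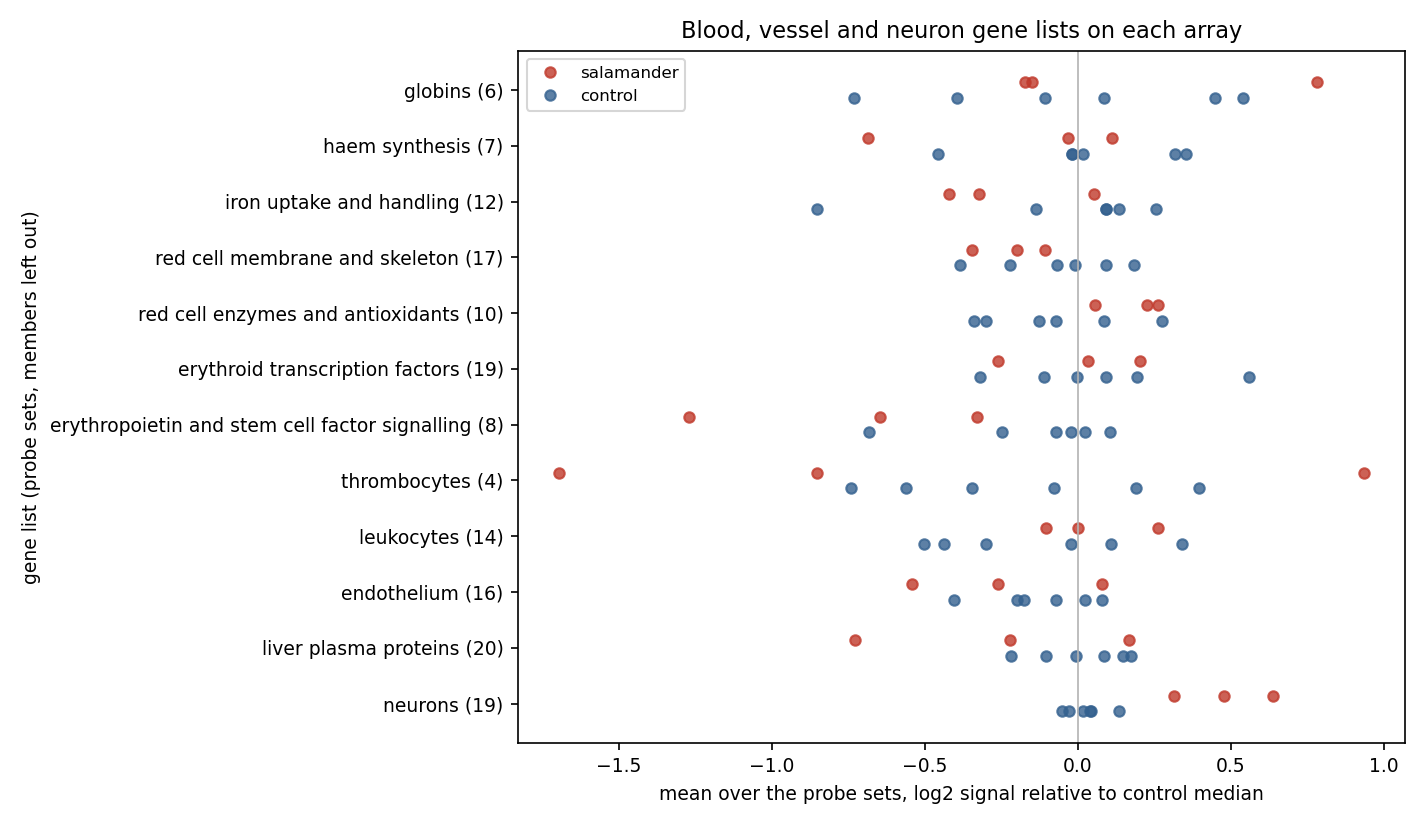
Each row is a gene list, with its number of probe sets apart from the members in brackets, and each point the mean log2 signal relative to the control median (horizontal axis) on 1 salamander array (red, upper) or 1 control array (blue, lower). The globin means run from -0.17 to 0.78 on the salamander arrays and from -0.73 to 0.54 on the controls, and the groups are apart only in the neuron list. How often a list mean parts the groups was not tested.

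The named genes most like each member were found by Pearson's r over the 9 arrays, as a description. The closest was asl.L for hba1.S (r = 0.95), sqor.L for hba3.L (r = 0.91), dpm1.S for slc4a1.L (r = 0.96), wbp4.S for gata1.L (r = 0.96) and tmbim6.L for gata1.S (r = 0.93). The second closest were glrx5.S, dolpp1.L, leng9.L, tmem111.S and galc.L, in the same order, with r between 0.90 and 0.94. No red cell gene of the lists was among them other than glrx5.S. Such values are usual here: over all 9304 probe sets with 1 symbol, the highest r with another gene had a median of 0.945, and the 5 member probe sets lay between the 2.88th and the 74.5th percentile.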

How the data were processed

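Signals of one-colour Affymetrix Xenopus arrays were computed with MAS5, per the submitters' processing notes (version: not given in the sources used here). As deposited, the log2 values cover 15611 probe sets on 9 arrays, and 0 columns belonged to other samples. Each row's control median was 0 (largest departure 9.5e-07). The logarithm and the centring were read from the values, and the scaling between arrays stays unknown. Without levels, no filter or intensity trend was used.

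The 120 Affymetrix control probe sets were left out. Salamander minus control was fitted on the other 15491 with limma 3.58.1 (lmFit, eBayes) in R 4.3.3. Benjamini-Hochberg adjustment was used, with calls at an adjusted p under 0.05. Recovery of planted differences was checked on simulated independent normal values, which do not carry the centring of these data. Python 3.11.15, scipy 1.17.1 and matplotlib 3.10.9 served for the rest. A value was marked weak where its single-precision step was finer than a signal of 256 or more allows.

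Names came from the platform annotation: 9304 probe sets had 1 symbol, 195 several, and 5992 of those tested were not in it. All member probe sets are given, and for each red cell list the 2 with the smallest p and, added after their values were seen, the further probe sets of those genes. Likeness took the 2 closest named genes. Members and lists were chosen with earlier results of these data known. Alternatives covered normalization, moderation, array weights, blocks, weak signals and each array left out.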

Additional observations from a re-analysis of the deposited data

Results flagged for a closer look

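Of 38 probe sets described here, 6 had a control array far from the other 5. In hba2.L control array 2 was at -3.45 and the next lowest control at -0.78, a gap of 0.738 of the control range. In hba4.S control array 6 was at -2.68 and the next lowest at -0.42, a gap of 0.696 of the range. For the nfe2.S probe set with a difference of 1.03, control array 3 was at 2.07 and the next highest at 0.38, a gap of 0.743. For the urod.L probe set with a difference of 0.37, control array 6 was at 2.11 and the next highest at 0.44, a gap of 0.667. For the kit.S probe set with a difference of -0.75, control array 2 was at -1.01 and the next lowest at -0.05, a gap of 0.650. For the tcf3.L probe set with a difference of -0.36, control array 6 was at -1.70 and the next lowest at -0.10, a gap of 0.769. Gaps past the same limit were found in 9.19% of all probe sets. The limit is set to be passed by chance in about 5% of groups. The low value of hba4.S carried the weak mark and the other 5 did not.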

How the results depend on the processing

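The count of 0 called probe sets was the same under all alternatives run, the linear model (smallest adjusted p 0.0504) and gene means included. The number at an unadjusted p under 0.05 was 475 after quantile normalization, or 3.07%, against 798, or 5.15%. Among the 7316 bright probe sets, those with at most 1 weak mark, it was 354, a similar share of 4.84%. Without 1 array, the differences ran from -0.42 to -0.20 for hba1.S, -1.99 to -1.09 for hba3.L, -2.14 to -1.66 for slc4a1.L, -1.03 to -0.02 for gata1.L and -0.17 to 0.79 for gata1.S, and among other globins from -0.57 to 0.43 for hba2.L and -0.19 to 0.13 for hbg2.L. Among probe sets of other red cell genes, known by their differences in brackets, the sign turned without 1 array for urod.L (0.37), from -0.28 to 0.87, tcf3.S (-0.06), from -1.04 to 0.44, tcf3.L (-0.81), from -1.64 to 0.32, kit.S (-0.75), from -1.49 to 0.094, kit.L (-0.55), from -1.25 to 0.17, nfe2.S (-0.31), from -0.64 to 0.32, add1.S (0.31), from -0.093 to 0.88, and ca2.L (0.13), from -0.38 to 0.90. The adjusted p of slc4a1.L was 0.738 or higher under each alternative fit. Signs turned within the low spike-in level for gata1.L (0.40) and hbg1.L (-0.31), and within the high level for gata1.S (-0.13), hba2.L (0.87), hbg2.L (0.017) and pfkm.S (-0.14). For hba2.L they also turned with quantile normalization (0.10), array weights (0.015) and the spike-in covariate (0.018), and for hbg2.L with group medians (0.059). For those other probe sets, differences turned within the low level to -0.93 for nfe2.S (0.67), 1.08 for nfe2.S (-0.31), 2.45 for tcf3.S, 0.058 for tcf3.L (-0.36), 0.43 for kit.S (-0.75), 0.31 for kit.L, -1.31 for add1.S and -2.15 for ca2.L. That of tcf3.L (-0.81) turned to 0.23 within the high level and 0.015 with group medians, and that of nfe2.S (-0.31) to 0.22 with group medians. The cause was not tested.

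The replicate numbers of the labels gave no clear pairing of the samples: deviations of same-numbered arrays correlated at 0.0059, 0.016 and -0.0049. Those of differently numbered arrays correlated between -0.017 and 0.0095. Since probe sets of the same gene did not vary together as a rule, such a check could miss a pairing. With the number as a block there were 0 calls. In that fit control arrays 4 to 6 have no partner, so the difference rests on arrays 1 to 3 of each group. Changes from the main fit can therefore come from the loss of those controls. The difference was then -0.10 for hba1.S, -1.31 for hba3.L, -1.75 for slc4a1.L, -0.59 for gata1.L and 0.10 for gata1.S, and it turned for hba2.L (0.70), hbg2.L (0.025), glrx5.S (0.25) and tcf3.S (0.094). Among the member probe sets, gata1.S had the most weak marks, on 5 arrays. Those on control arrays 2 and 5 can come from rounding. The probe set slc4a1.L had weak signals on every salamander array.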
